A study of Mus musculus with 8 samples.

Results

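The ribosome of the cytosol is built from a small (40S) and a large (60S) subunit, each made of ribosomal RNA and of proteins encoded by the *Rps* and *Rpl* genes. In RefSeq names of the assembly GRCm38.p6, 94 mouse genes had a symbol beginning with *Rpl* or *Rps* and a digit, or were *Rplp0*, *Rplp1*, *Rplp2* or *Rpsa*. The ribosomal S6 kinases, *Rps19bp1* and symbols with -ps were left out. RefSeq lists 88 of these genes as protein coding, 5 as pseudogenes and 1 as a transcribed pseudogene. Of the 94, 87 had a named probe among the 21368 genes named on the array, and 84 were tested among 11072 tested genes. The 84 comprised 34 genes of the 40S and 50 of the 60S subunit. Subunits were assigned by symbol alone, so the 34 include *Rps4l*, the transcribed pseudogene. Whether each gene encodes a protein of that subunit was not checked.

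Hepatocyte RNA samples, 4 labelled hCNR1+/+ and 4 labelled hCNR1-/-, were hybridised to 1-colour Agilent arrays, 1 array per sample. All mice were male, 12 to 14 weeks old, on a standard diet, and drawn from crosses of albumin-Cre mice with mice whose *Cnr1*, the gene of cannabinoid receptor 1, carries loxP sites. The strain label is CNRO for hCNR1+/+ and CNRO with Alb-Cre for hCNR1-/-, so the presence of Cre and the loss of the receptor cannot be told apart. Albumin-Cre is active in hepatocytes, and other liver cells keep the receptor gene. The labels number the samples but do not say that each is a separate mouse, the legend of the study's array figure gives a smaller n than the 4 arrays per genotype used here, and the p-values measure the spread between these samples.

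All arrays lay on 1 slide, hCNR1+/+ in row 1 and hCNR1-/- in row 2, so row and genotype cannot be told apart. The 75th percentile of the spot intensity ran from 62.0 to 139 in hCNR1+/+ and from 29.3 to 124 in hCNR1-/- arrays, and the dimmest was hCNR1-/- replicate 4. That array had a mean correlation of 0.94 with the others of its group, against 0.96 to 0.98 for each of the other 7. The calls over all members and the counts of most gene lists are given with and without it. The signal of all 22 tested hepatocyte markers passed the scanner software's background test on each of the 8 arrays. The *Cnr1* probe was not well above background, and the genotype was taken from the labels. Levels are log2 signal minus the array's 75th percentile, listed from replicate 1 to 4, and a log2 fold change is the mean of hCNR1-/- minus that of hCNR1+/+.

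Ribosomal protein mRNAs are among the most abundant mRNAs of any cell, and hepatocytes, which secrete most plasma proteins, need a large supply of ribosomes. Many of these mRNAs begin with a run of pyrimidines, the terminal oligopyrimidine tract, through which mTOR signalling adjusts their translation. A change of mRNA level, as measured here, is therefore not a measure of ribosomal protein synthesis. The bases around the annotated start sites are shown for members that the results below turn on, each with 40 bases before the start and 30 from it, in capitals where a run of 8 or more pyrimidines (C or T, on the gene's own strand) lies within 10 bases of the start. Sequences and positions are those of RefSeq on GRCm38.p6. The first group holds members that were higher in hCNR1-/-:
*Rpl13a*, chr7:45128716-45128785, minus strand: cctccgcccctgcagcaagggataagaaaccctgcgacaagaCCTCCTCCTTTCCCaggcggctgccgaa
*Rpl18*, chr7:45718031-45718100, plus strand: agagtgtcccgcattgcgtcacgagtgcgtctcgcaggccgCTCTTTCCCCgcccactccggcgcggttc
*Rps27*, chr3:90213619-90213688, minus strand: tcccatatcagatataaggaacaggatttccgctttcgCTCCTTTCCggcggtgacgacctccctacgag
*Rpl34*, chr3:130730308-130730377, minus strand: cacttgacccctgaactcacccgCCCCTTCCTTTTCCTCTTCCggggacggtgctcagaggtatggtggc
*Rps3*, chr7:99483680-99483749, minus strand: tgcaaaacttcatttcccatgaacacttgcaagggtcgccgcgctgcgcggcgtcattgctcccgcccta
The second group holds members with a negative log2 fold change:
*Rps3a1*, chr3:86142639-86142708, minus strand: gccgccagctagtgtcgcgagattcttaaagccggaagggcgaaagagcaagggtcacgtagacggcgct
*Rps6*, chr4:86857338-86857407, minus strand: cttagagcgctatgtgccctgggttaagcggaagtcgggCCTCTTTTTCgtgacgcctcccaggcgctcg
*Rpl36al*, chr12:69184038-69184107, minus strand: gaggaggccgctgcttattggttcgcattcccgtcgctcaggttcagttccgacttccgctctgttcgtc

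Of the 94 genes, 68 matched a promoter window of 250 bases before and 50 after the start. A run of 8 or more pyrimidines at the start stood in 31 of the 68 (45.6%), against 16.1% of all 27025 genes with a window. The letters CGGAAG on either strand, the core that ETS-family factors such as GABP bind, stood in 43 of 68 (63.2%), against 18.8% of all and 34.7% of the tested genes with a window. The run stood in 6 of the 8 called members with a window, in 25 of 55 tested members not called and in 3 of 12 with a negative log2 fold change, counts that were not tested. *Rps6* has a run and *Rps3* has none.

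As a group, ribosomal protein mRNAs lay higher in hCNR1-/- than in hCNR1+/+ hepatocytes relative to the other genes on the array. The median log2 fold change of the 84 members was 0.44, against 0.08 over all 11072 genes. Of the members 69 were positive and 15 negative, where 56.6% of all genes were positive. A closer comparison is the 8339 genes well above background on all 8 arrays, as 83 of the 84 members were. Their median was 0.14, and 62.1% of them were positive. Limma called 2.96% of them higher at an adjusted p below 0.05, and 14.6% were higher without overlap between groups. They are not matched to the members for brightness. The members' median level was 8.36 to 9.17 on the 8 arrays, against 1.66 to 2.18 for all tested genes. The 75th percentile over bright spots (well above background on all arrays) exceeded that over all spots by 4.91 to 5.07 on hCNR1+/+ arrays. On hCNR1-/- replicates 1 to 4 the excess was 5.17, 5.27, 5.15 and 4.92. Equally bright genes were not compared, and the list of members as a whole was not tested. Limma called 9 members higher (10.7%) and 0 lower at an adjusted p below 0.05, where 2.94% of all genes were called higher and 1.30% lower. At an unadjusted p below 0.05 limma had 33 members higher and 3 lower, against 14.7% and 6.92% of all genes. Where a difference of more than 2-fold and an unadjusted p below 0.05 were required, 4 members were higher and 1 lower, against 4.78% and 3.75% of all genes. In 26 members every hCNR1-/- array lay above every hCNR1+/+ array, and in 3 every one lay below, where 12.7% and 5.04% of all genes did so.

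Without scaling between arrays the sign of the members' median turned with single arrays left out. It was -0.12 with all arrays, where that of all genes was -0.47 and 35 members were positive, and 0.48 without hCNR1-/- replicate 4, where that of all genes was 0.05 and 71 members were positive. Without hCNR1+/+ replicate 2 it was 0.01, and without any other single array it was negative. The members' median minus that of all genes was 0.35, a value that adding a constant to an array cannot change, so scaling by a percentile or a median is no check of it. Quantile normalization, which can change it, gave 0.16, with 51 members positive and 0 called, where 1.21% of all genes were called higher. Limma also called 0 members with median scaling, the deposited z-scores or normexp background correction, where the medians were 0.39, 0.42 and 0.37 and 0.226%, 0.271% and 0.253% of all genes were called higher. Over 36 alternatives the 9 members stayed positive, from 0.08 to 1.46, with adjusted p-values from 0.00174 to 1.00 (limma). They were picked for their calls in these same arrays, so the kept sign is no separate support. Each kept its call in 3 (*Rps2*) to 8 (*Rplp1*) of the 36. On the separate arrays, the members' median minus the median of all tested genes was 6.32, 6.77, 6.46 and 6.26 for hCNR1+/+, compared with 6.99, 6.92, 6.98 and 6.87 for hCNR1-/-. Every hCNR1-/- array lay above every hCNR1+/+ array in this difference.

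**Figure D1:**
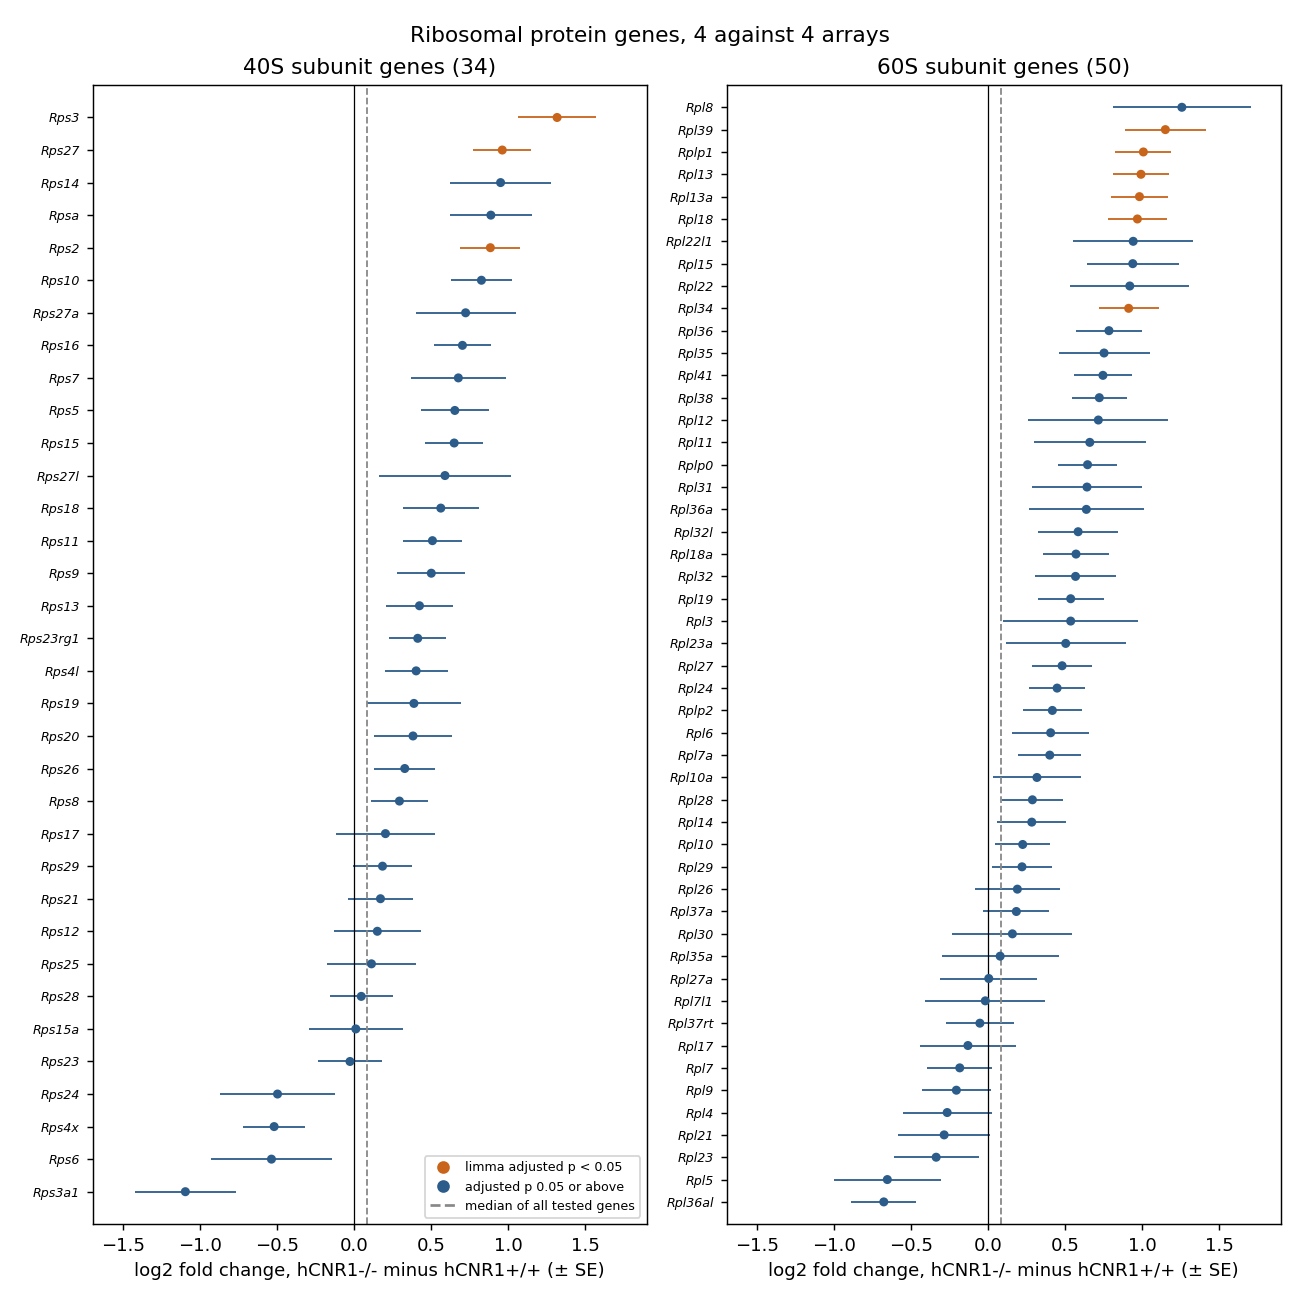
Log2 fold change (x axis, hCNR1-/- minus hCNR1+/+, ± SE, 4 against 4 arrays) of the 34 tested 40S and 50 tested 60S genes, with the median of all tested genes as a dashed line at 0.08. The 9 members past an adjusted p of 0.05 all lie to the right, and *Rps3a1* is the farthest to the left, under the scaling to the 75th percentile; without scaling the members' median is -0.12, and 0.48 if hCNR1-/- replicate 4 is also left out.

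Both subunits contributed. Of the 34 genes of the 40S subunit 29 were positive, with a median of 0.41 and 3 called higher. Of the 50 genes of the 60S subunit 40 were positive, with a median of 0.49 and 6 called higher. The 29 include *Rps4l* (0.40) and *Rps23rg1* (0.41), both placed there by symbol alone, the latter at a mean level of only 0.94 in hCNR1+/+. Without hCNR1-/- replicate 4, limma called 17 of the 40S and 26 of the 60S genes higher and 1 of the 40S lower. Of all genes 10.1% were then called higher and 2.92% lower. Whether the subunits differed was not tested.

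In the 40S subunit the member with the largest positive change was *Rps3*, whose protein lines the mRNA entry channel and also takes part in DNA repair. Its 4 levels were 6.40, 6.89, 7.10 and 6.34 on the hCNR1+/+ arrays, compared with 8.13, 8.23, 8.06 and 7.58 on the hCNR1-/- arrays. The groups did not overlap, and replicate 4 was the lowest of the hCNR1-/- arrays. The log2 fold change was 1.32 ± 0.25 (SE), a 2.49-fold difference, with an adjusted p of 0.0279 from limma. A second, dimmer *Rps3* probe gave 1.08.

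*Rps27*, a zinc-finger protein of the small subunit, had levels of 9.25, 9.49, 9.46 and 9.21 on the hCNR1+/+ arrays, compared with 10.31, 10.52, 10.30 and 10.15 on the hCNR1-/- arrays. The groups stood apart by more than their own spread (log2 fold change 0.96 ± 0.19 SE, adjusted p = 0.0302, limma), and its 4 probes ran from 0.95 to 1.02. *Rps2*, a neighbour of Rps3 at the entry channel, was 9.13, 9.54, 9.31 and 9.44 on the hCNR1+/+ arrays, compared with 10.22, 10.28, 10.02 and 10.44 on the hCNR1-/- arrays. The groups did not overlap (0.88 ± 0.19 SE, adjusted p = 0.0393, limma). Its second probe gave 0.58 (adjusted p = 0.108, limma over probes).

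*Rpsa*, which also serves as a laminin receptor at the cell surface, was 9.82, 9.92, 9.97 and 10.03 on the hCNR1+/+ arrays, compared with 10.35, 10.90, 10.53 and 11.51 on the hCNR1-/- arrays. Here replicate 4 was the highest array of its group, unlike in most members, and the adjusted p from limma was 0.0921. Its 4 probes ran from 0.34 to 1.26, and replicate 4 stood 0.91 above the mean of the other 3 hCNR1-/- arrays on the brightest probe and 1.27 below it on the dimmest. All 14 genes of the 40S head on a list of such proteins were positive, with a median of 0.48, and 1 of them, *Rps3*, was called. Without hCNR1-/- replicate 4, 13 were positive, with a median of 0.67 and 9 called higher, where 10.1% of all genes were. Of all 11072 genes 7150 were then positive.

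In the 60S subunit, *Rpl39*, a small protein at the exit tunnel of the growing chain, was 6.77, 7.53, 7.22 and 6.81 on the hCNR1+/+ arrays, compared with 8.32, 8.45, 8.48 and 7.70 on the hCNR1-/- arrays. Replicate 4 was the lowest of its group and still lay above every hCNR1+/+ array. The log2 fold change was 1.15 ± 0.26 (SE, adjusted p = 0.0448, limma), and its 3 probes ran from 1.15 to 1.32.

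*Rpl13a*, which in other cells leaves the ribosome to join the GAIT complex that silences inflammatory mRNAs, was 8.44, 8.67, 8.57 and 8.77 on the hCNR1+/+ arrays, compared with 9.54, 9.69, 9.46 and 9.70 on the hCNR1-/- arrays. The groups did not overlap, and the spread within each was small beside the change on this probe, the brightest (0.98 ± 0.18 SE, adjusted p = 0.0263, limma). Dimmer probes gave 0.79 and 0.82 (adjusted p = 0.0742 and 0.0727, limma over probes). On these, replicate 4 lay 0.67 and 0.70 below the mean of the other hCNR1-/- arrays. *Rpl13*, *Rpl18* and *Rpl34*, structural proteins of the large subunit, had log2 fold changes of 0.99, 0.97 and 0.91, each with no overlap between groups and with adjusted p-values from limma of 0.0251, 0.0302 and 0.0376.

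The stalk, formed by Rplp0 and pairs of Rplp1 and Rplp2, recruits the elongation factors. *Rplp1* was 9.21, 9.49, 9.39 and 9.50 on the hCNR1+/+ arrays, compared with 10.30, 10.56, 10.34 and 10.42 on the hCNR1-/- arrays (1.01 ± 0.18 SE, adjusted p = 0.0240, limma). In the other 2 stalk genes the groups also did not overlap, without passing the threshold. *Rplp0* had a log2 fold change of 0.65 (adjusted p = 0.0935) and *Rplp2* of 0.42 (adjusted p = 0.243), both from limma.

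*Rpl8*, near the peptidyl transferase centre, showed a log2 fold change of 1.26 that 1 hCNR1+/+ array set in part. Its 4 levels were 9.40, 9.31, 9.49 and 7.35 on the hCNR1+/+ arrays, compared with 9.98, 10.31, 9.93 and 10.37 on the hCNR1-/- arrays. The low hCNR1+/+ replicate 4 was not seen on its second probe, which gave 0.44, and the adjusted p was 0.146 (limma). Without that array the log2 fold change was 0.75 (adjusted p = 0.101).

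**Figure D2:**
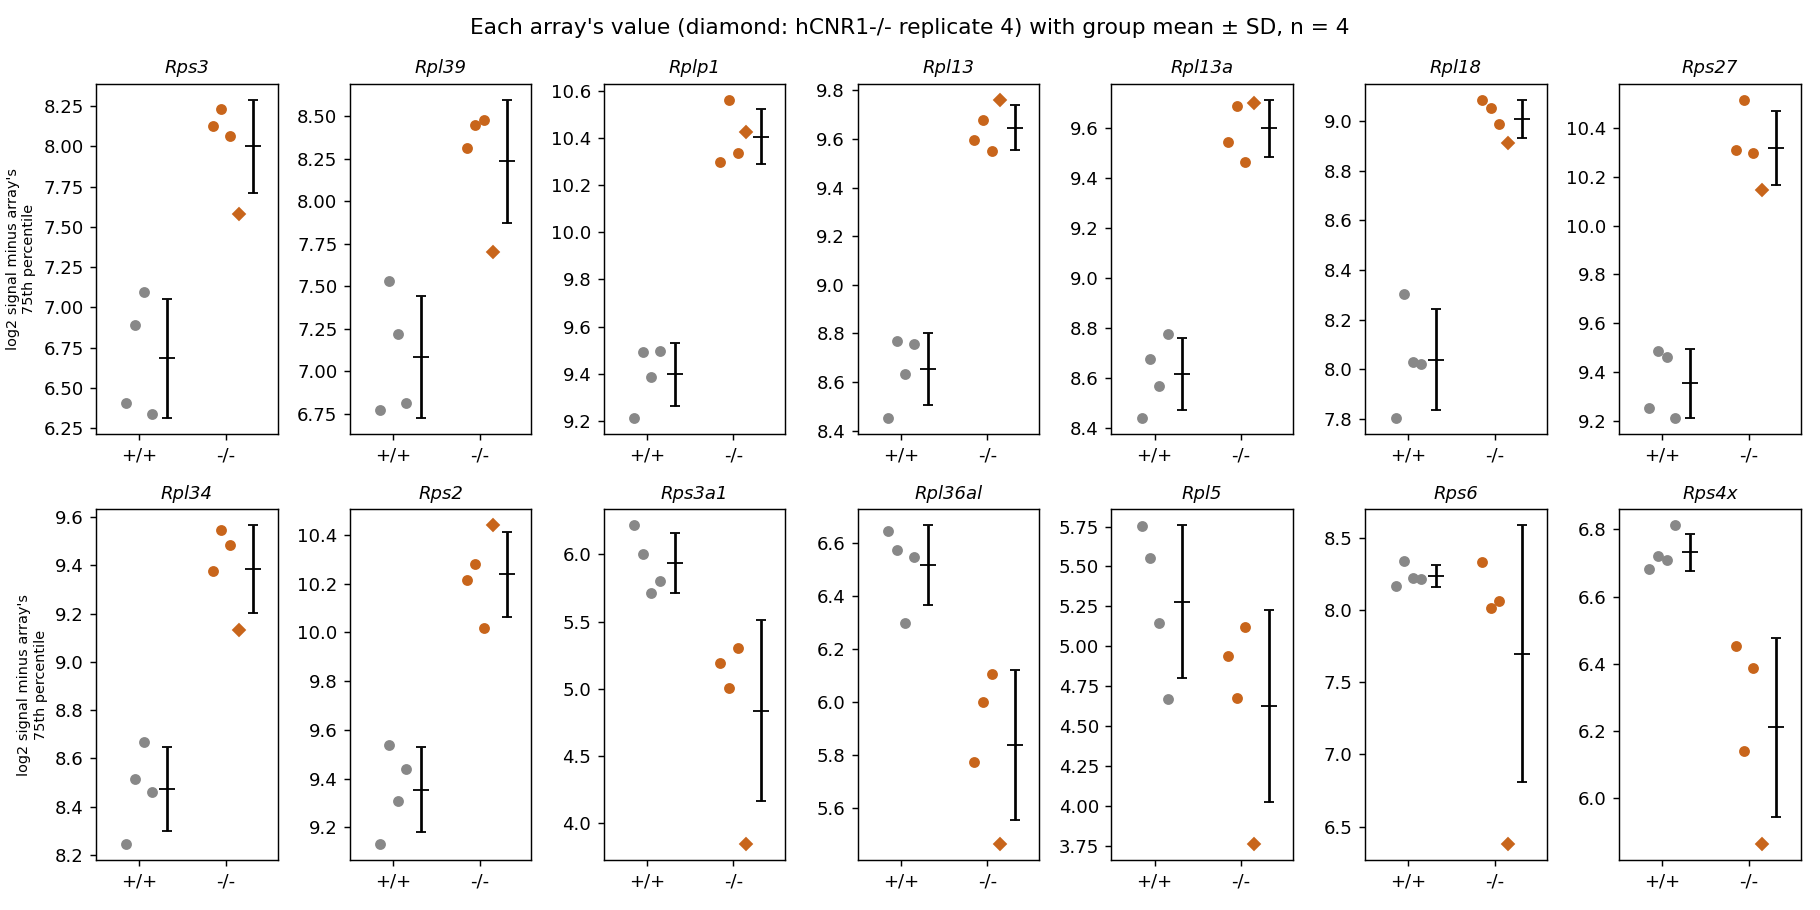
Level on each array (y axis, log2 signal minus the array's 75th percentile) of the 9 members past an adjusted p of 0.05 and of the 5 most negative members, with group mean ± SD (n = 4); axes differ between panels and do not begin at 0. In the 9 called members no array of one genotype overlaps the other, and hCNR1-/- replicate 4 (diamond) is the lowest array in all 5 negative members.

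A few members ran the other way. *Rps3a1*, whose protein sits at the mRNA exit side where the factor eIF3 binds, was 6.22, 6.01, 5.71 and 5.80 on the hCNR1+/+ arrays, compared with 5.19, 5.01, 5.31 and 3.85 on the hCNR1-/- arrays. All hCNR1-/- arrays lay below all hCNR1+/+ arrays, and replicate 4 was the lowest. The log2 fold change was -1.10 ± 0.33 (SE) with an adjusted p of 0.0921 (limma), and -0.77 with an adjusted p of 0.0308 without replicate 4, which narrows the spread. Over all 36 alternatives it stayed negative, with adjusted p-values from 0.0150 to 1.00. Its second probe gave -0.86.

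*Rpl36al*, an autosomal paralog of *Rpl36a*, was 6.30 to 6.64 on the hCNR1+/+ arrays, compared with 5.47 to 6.10 on the hCNR1-/- arrays. The groups did not overlap (log2 fold change -0.68, adjusted p = 0.102, limma), while *Rpl36a* itself had 0.64 (adjusted p = 0.357). *Rps4x* likewise did not overlap between groups, at -0.52 (adjusted p = 0.171, limma). An exact two-sided permutation test of 4 against 4 arrays cannot go below 0.0286, the value for any member without overlap, and 29 of the 84 members, in either direction, had it.

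*Rps6*, the substrate of the S6 kinases downstream of mTOR, was 8.17, 8.34, 8.22 and 8.21 on the hCNR1+/+ arrays, compared with 8.33, 8.01, 8.06 and 6.38 on the hCNR1-/- arrays. On this probe, the brightest, the negative value of -0.54 (adjusted p = 0.460, limma) rested on replicate 4, without which it was -0.10. Its 3 tested probes ran from -0.84 to -0.54. The dimmest (-0.84, adjusted p = 0.190, limma over probes) was 2.64, 2.41, 1.61 and 2.17 on the hCNR1+/+ arrays. On the hCNR1-/- arrays it was 1.88, 1.67, 1.47 and 0.45. *Rpl5* and *Rpl11*, which together bind 5S ribosomal RNA and, when free, the p53 regulator Mdm2, did not run in parallel. *Rpl5* had -0.65 (adjusted p = 0.310) and *Rpl11* 0.66 (adjusted p = 0.326), both from limma on all 8 arrays, and the levels of both overlapped between groups. Without replicate 4 *Rpl11* had 1.02 (adjusted p = 0.0263) and *Rpl5* -0.37 (adjusted p = 0.388).

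Many further members were high on hCNR1-/- replicates 1 to 3 and low on replicate 4. In 63 of 84 members replicates 1 to 3 all lay above every hCNR1+/+ array, which 24.3% of all tested genes did. Replicate 4 was the lowest hCNR1-/- array in 67 members and the highest in 9. The same counts over all tested genes were not made. Its distance to the mean of the other 3 had a median of -0.59 over members and -0.33 over all tested genes. That distance was below -1 in 28 members (33.3%) and in 26.7% of all tested genes. *Rpl3*, near the peptidyl transferase centre, was 7.89, 7.50, 7.49 and 5.66 in hCNR1-/- replicates, against 6.44 to 6.90 in hCNR1+/+. Its log2 fold change moved from 0.54 to 1.03 without replicate 4.

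Without hCNR1-/- replicate 4, limma called 43 members higher and 1 lower, where 10.1% of all genes were called higher and 2.92% lower. Of the genes well above background on all 8 arrays 11.6% were then called higher. The median was then 0.61 for members and 0.17 for all genes. *Rps27a*, which encodes a fusion with ubiquitin, then had 1.00 (adjusted p = 0.0359), and *Rps19*, the gene most often mutated in Diamond-Blackfan anaemia, 0.69 (adjusted p = 0.0347). Of 9 genes of that anaemia 4 were then called higher, and 0 with all arrays, where limma had 1 of them higher at an unadjusted p below 0.05 and the median was 0.33.

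The calls with all 8 arrays rested on the full set. Leaving out any 1 of hCNR1+/+ replicates 1 to 3 or hCNR1-/- replicates 1 to 3 left 0 members called, and leaving out hCNR1+/+ replicate 4 left 3. Calls over all genes fell too, from 2.94% higher to between 0.117% and 1.29% in the fits with 0 members called. Without hCNR1+/+ replicate 4 they fell to 1.17%. The median stayed between 0.40 and 0.61 in these 8 fits.

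**Figure D3:**
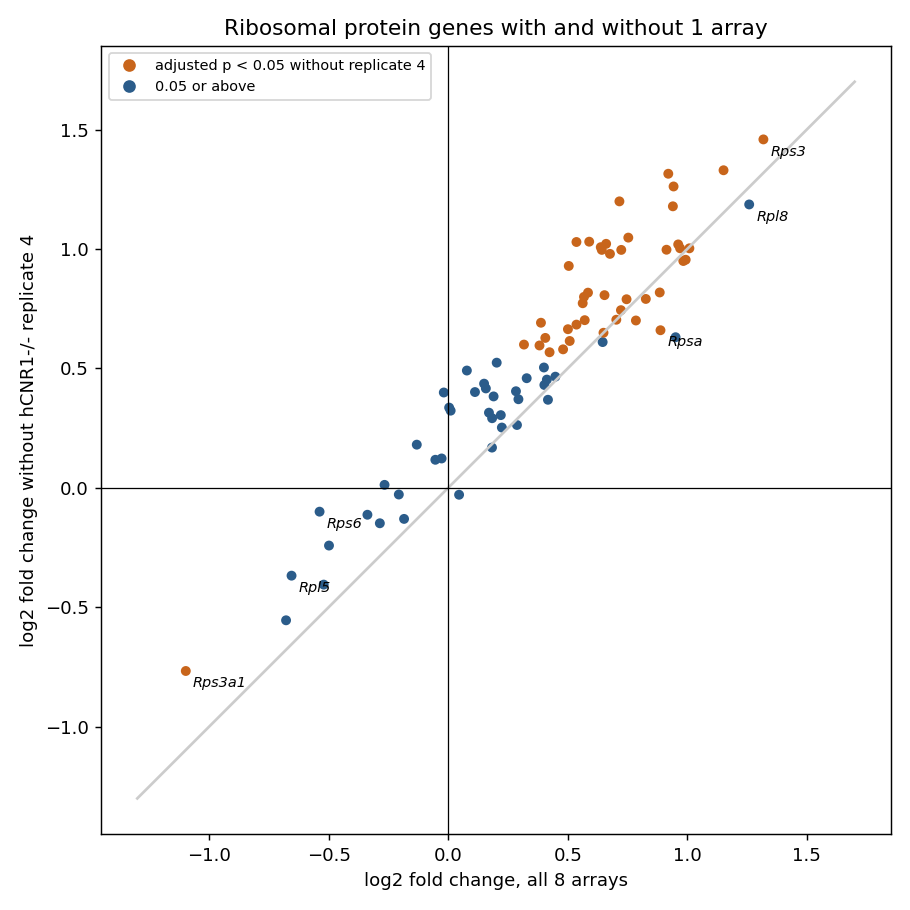
Log2 fold change of the 84 tested members with all 8 arrays (x axis) and without hCNR1-/- replicate 4 (y axis), with the line of equality. Most points lie above the line, and 44 members, 43 higher and *Rps3a1* lower, pass an adjusted p of 0.05 without that array.

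**Figure D4:**
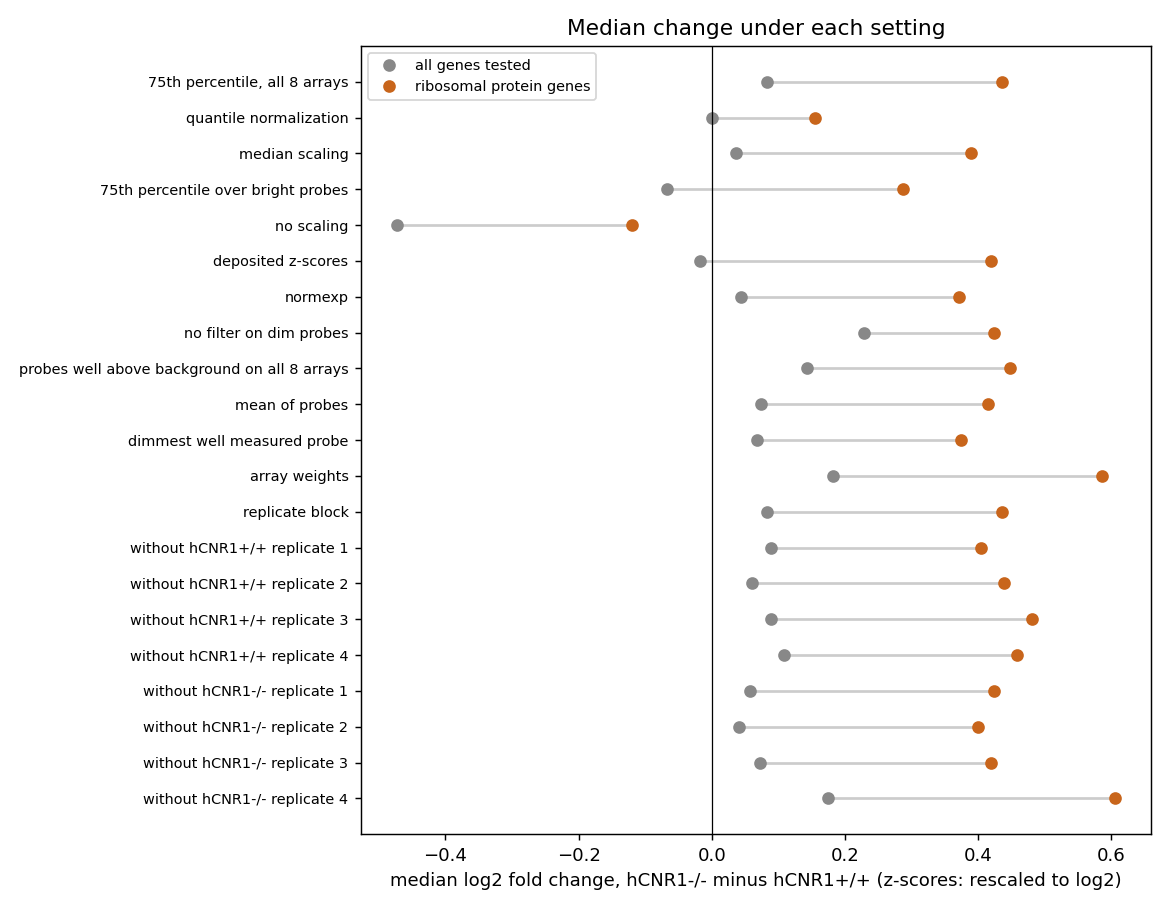
Median log2 fold change (x axis) of ribosomal protein genes and of all tested genes under each setting (y axis). The members' median lies to the right of that of all genes in every setting drawn, by 0.16 to 0.44, and is below 0 only with no scaling, at -0.12; scalings that add a constant to each array keep the distance by construction.

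Several genes have more than 1 probe, which may lie on different transcripts of the gene. Of the 84 members 51 had 2 or more tested probes, with a median spread of 0.20 between the lowest and highest log2 fold change of a gene. In 7 of the 51 the probes had opposite signs, among them *Rpl31*, *Rpl15*, *Rpl22* and *Rps25*, which were named for this after their values were seen. In each of these 4 the dim probe was negative and the bright one positive. *Rpl22*, for example, had 0.92 on the brightest probe and -0.27 on the other, and the array design assigns these to different transcripts. Probes of 4 of the 51 genes, 3 of them among the 7, were assigned to more than 1 transcript. Tested probe by probe, 27 of 166 member probes, from 16 genes, were called higher by limma and 0 lower, against 4.45% and 3.46% of all 19985 probes. Ribosomal protein genes have many processed pseudogenes, and whether a probe also bound their transcripts was not tested.

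**Figure D5:**
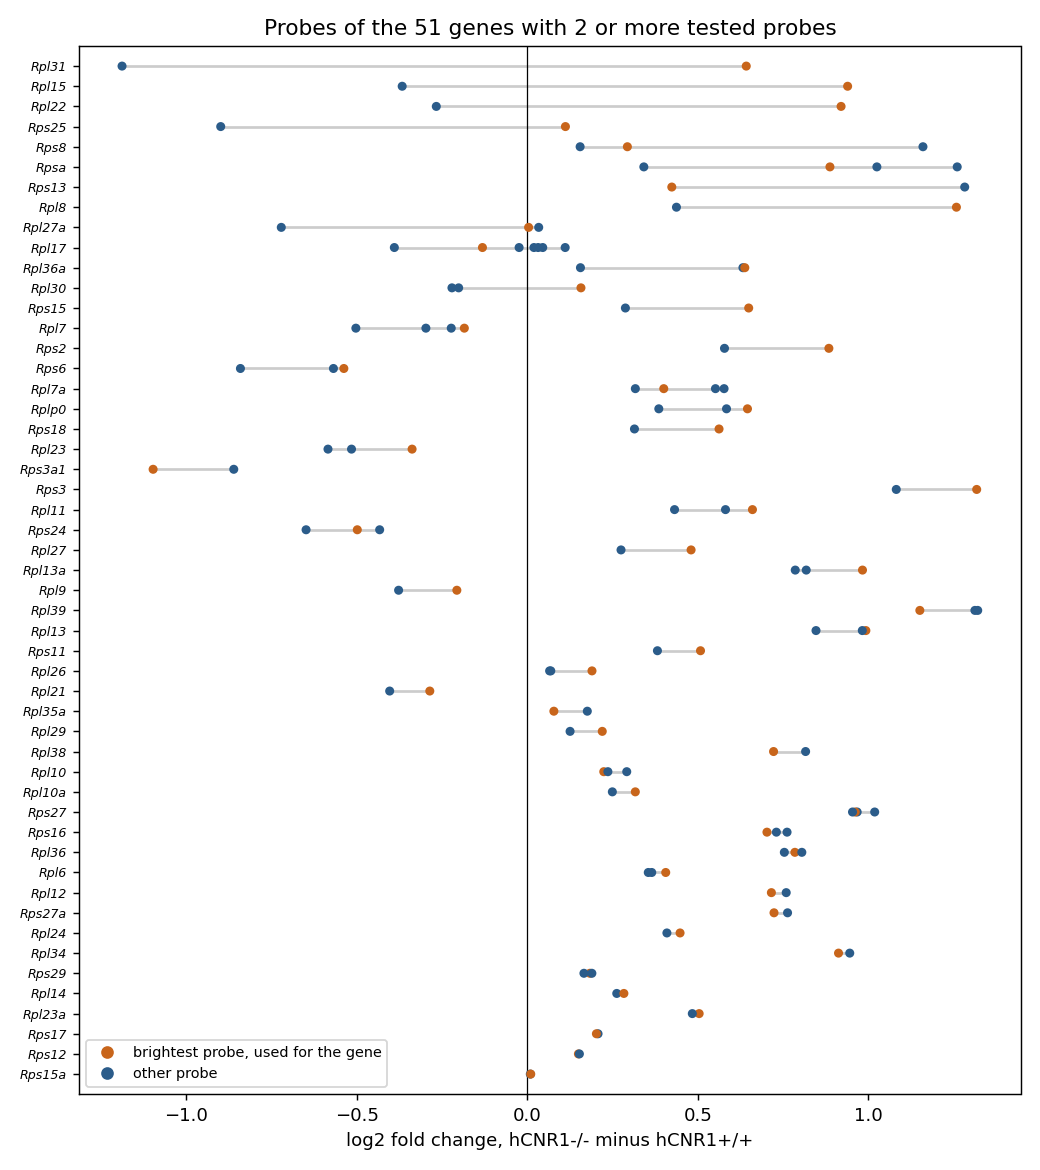
Log2 fold change (x axis) of each probe of the 51 members with 2 or more tested probes, ordered by the spread between probes, with the brightest probe marked. Most spreads are narrow (median 0.20), and the widest, *Rpl31*, spans 1.83.

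Of the paralogs, *Rpl22l1*, which resembles Rpl22, was 5.18, 5.58, 4.74 and 4.29 on the hCNR1+/+ arrays, compared with 5.86, 6.33, 6.44 and 4.93 on the hCNR1-/- arrays. The groups overlapped (0.94, adjusted p = 0.198, limma), as they did for *Rpl22* (0.92, adjusted p = 0.207). *Rps27l*, a p53-responsive relative of *Rps27*, had 0.59 (adjusted p = 0.461), while *Rpl7*, *Rpl7l1* and *Rpl10* had -0.18, -0.02 and 0.22, with adjusted p-values of 0.645, 0.986 and 0.505. *Rpl3l* of muscle and *Rpl10l* and *Rpl39l* of testis were well above background on 0 of 8 arrays and were not tested. No probe was matched here to *Rpl37*, *Rpl32p*, *Rpl6l*, *Rps12l1*, *Rps27rt*, *Rps3a2* or *Rps3a3*.

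The genes that make ribosomes or share the pyrimidine tract were read from lists. Of 70 tested ribosome biogenesis genes 47 were positive, with a median of 0.27. Limma called 0 in either direction at an adjusted p, and 19 were higher and 3 lower at an unadjusted p below 0.05, where 14.7% and 6.92% of all genes were. Without hCNR1-/- replicate 4 it called 16 higher and 0 lower, where 10.1% and 2.92% of all genes were called, with 60 positive and a median of 0.41. Of all 11072 genes 7150 were then positive, with a median of 0.17. Of 19 other mRNAs with a terminal pyrimidine tract, such as those of elongation factors, 14 were positive, with a median of 0.22 and 0 called (5 higher and 1 lower at an unadjusted p below 0.05, limma). Without hCNR1-/- replicate 4, 17 were positive, with a median of 0.45 and 4 called higher.

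Of 12 genes from mTOR to Rps6 8 were positive (median 0.25), and 11 without hCNR1-/- replicate 4 (median 0.28). Of 9 genes for ribosome quality control and recycling 7 were positive, with and without that array (medians 0.14 and 0.37). Of 5 hosts of small nucleolar RNAs 2 were positive (median -0.14), and the sign turned without that array, with 4 positive, a median of 0.48 and 1 called higher. With all arrays limma called 0 in these 3 lists. At an unadjusted p below 0.05 it had 2 mTOR genes higher and 1 host gene lower. Of all 11072 genes 56.6% were positive with all arrays (median 0.08), and 7150 genes without hCNR1-/- replicate 4 (median 0.17).

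Some Kupffer cell markers were lower in hCNR1-/-. All 11 tested Kupffer cell markers of 16 listed were negative, with a median of -0.83 and 2 called lower by limma, *Marco* (-2.41, adjusted p = 0.0336), a scavenger receptor, and *Ctss* (-1.89, adjusted p = 0.0124), a lysosomal protease. Their mean level was 1.14 to 2.36 on hCNR1+/+ and 0.10 to 0.93 on hCNR1-/- arrays. Without hCNR1-/- replicate 4 the median was -0.89 and 4 were called lower. *Adgre1* and *Timd4*, defining markers of these cells, were too dim to be tested. Of 22 hepatocyte markers 11 were positive and 11 negative, with 2 higher and 3 lower at an unadjusted p below 0.05. *Apob*, the protein of very-low-density lipoprotein, was called higher (1.63, adjusted p = 0.0477, limma), with and without hCNR1-/- replicate 4. *Pck1*, an enzyme of gluconeogenesis (-1.81, adjusted p = 0.0515, limma), and *Ass1*, of the urea cycle (-1.14, adjusted p = 0.0800), did not pass the threshold, though their groups did not overlap; they were named after their values were seen. Of 8 sinusoidal endothelial markers 6 were negative (median -0.27), and 3 lymphocyte, 2 cholangiocyte, 1 stellate cell and 1 red blood cell marker were tested, with 0 called by limma in these 5 lists (1 endothelial lower and 1 lymphocyte higher at an unadjusted p below 0.05). Without hCNR1-/- replicate 4, 1 endothelial and 1 stellate cell marker were called lower and 1 cholangiocyte marker higher. Fewer cells of a type and less RNA per cell cannot be told apart in such samples, and the part of these cells in the ribosomal protein values was not tested.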

How the data were processed

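Hepatocyte mRNA was measured on 8 Agilent 1-colour arrays, 4 per genotype. The deposited spot intensity came from Feature Extraction 12.0.3.1, which corrects background inside an array and leaves arrays unscaled. The deposited score is a z-score, since it differed by at most 0.005 from log2 intensities centred and scaled per array. Here the intensities were taken to log2 and each array's 75th percentile over 59305 non-control spots was subtracted. Accessions were matched to RefSeq names (GRCm38.p6), naming 28331 of 55681 probes. Genes with a probe that passed the software's background flag on 4 or more of the 8 arrays were tested through the brightest such probe by lmFit and eBayes of limma 3.58.1 in R 4.3.3, two-sided, with Benjamini-Hochberg adjustment over 11072 genes. Calls were an adjusted p below 0.05, or a fold change above 2 with p below 0.05. Single members also had an exact permutation test. The script was tested on simulated data.

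The members and gene lists were chosen with earlier results of these data known. Named members are those called, the 5 most negative and 5 most positive, a fixed list of textbook members, and those not tested; from other lists, the largest called changes. Alternatives changed the scaling, background correction, filter, choice of probe, array weights, replicate block and arrays left out. The number of arrays limits the precision, and no spot was saturated.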

Additional observations from a re-analysis of the deposited data

Results flagged for a closer look

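Among 60 sets of 4 arrays examined (29 named members and the members' median, in each genotype), 8 held 1 array farther from the rest than Dixon's ratio allows at the 95% level. Chance passes this in about 5% of independent sets. These sets share the same 8 arrays, and some members were named for extreme values, so their count cannot be set against that share. hCNR1-/- replicate 4 was that array, on the low side, in 7 of the 8. The ratio of its gap to the range was 0.898 for *Rpl11*, 0.848 for *Rpl22*, 0.847 for *Rpl36a*, 0.901 for *Rps27a*, 0.898 for *Rps27l*, 0.834 for *Rps6* and 0.860 for the members' median, which was 8.53 on that array and 9.08 to 9.17 on the other 3. In hCNR1+/+ the ratio was 0.914 for *Rpl8*, where replicate 4 was 7.35 and the others 9.31 to 9.49. Both are the dimmest arrays of their groups, and the part of brightness in these values was not tested.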

How the results depend on the processing

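The members' median lay above that of all genes in all settings run, which per-array constants cannot change, and the count of calls depended on most of them. At an adjusted p from limma, 9 members were higher with the 75th percentile, 0 under quantile normalization (14 at an unadjusted p below 0.05), median scaling (9), no scaling (0), deposited z-scores (10), normexp (15) and no filter on dim probes (21), and 3 with the percentile over bright probes (22). Calls over all genes also fell, from 2.94% higher to 1.21%, 0.226%, 0.00903%, 0.271%, 0.253%, 0.0375% and 0.921% in the same order. Array weights gave 49 higher and 2 lower, where 19.7% of all genes were called higher. With a fold change above 2 as well, 1 member was higher under quantile normalization, 2 under median scaling and with z-scores, and 0 with no scaling, against 4. The 1 lower member, *Rps3a1*, became 0 under median scaling, the mean of probes, the dimmest probe and array weights. The median was 0.156 and its excess over all genes 0.155 under quantile normalization, with 33 negative members, and -0.12 with no scaling, with 49 negative.

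Each array was left out in turn with 3 scalings, the latter 2 (no scaling and bright probes) chosen after seeing the data. Over these 24 fits the median ran from -0.39 to 0.61, its excess over all genes from 0.32 to 0.43, negative members from 11 to 71, higher calls from 0 to 43, lower calls from 0 to 3, higher calls with a fold change above 2 from 0 to 15, and lower ones from 0 to 3. The share of all genes called higher in these fits ran from 0% to 10.1%. With no scaling the median was -0.04, -0.06 and -0.36 without hCNR1+/+ replicates 1, 3 and 4, and -0.39, -0.20 and -0.26 without hCNR1-/- replicates 1 to 3. It was 0.01 without hCNR1+/+ replicate 2 and 0.48 without hCNR1-/- replicate 4. The cause was not tested.

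With the replicate number as a block limma called 0 members and 0 of all 11072 genes (30 members higher and 3 lower at an unadjusted p below 0.05). The deviations of same-numbered arrays from their group means had correlations of 0.21, -0.16, -0.05 and 0.02. Weak correlations cannot show that samples were not paired, and the labels do not say whether the numbers pair them. Dim probes limit what can be seen of the 3 members not tested.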
